A study of Mus musculus with 15 samples.

Results

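The longest H3K36me2 domains of EL4 chromatin were 2088 intervals of at least 30 kb. Of the 2125 protein-coding genes of known strand that they touched, 1684 (79.2%) carried H3K4me3 at the start, against 41.0% of untouched genes. In 562 of the 2088 domains an edge lay within 3 kb of a gene start of known strand, with the gene body on the domain side. Such edges were 14.5% of all 4176 edges. A gene start of either direction lay within 3 kb of 19.7% of edges and 3.21% of domain midpoints. The domains were chosen by length: both H3K36me2 peak lists were pooled, overlapping or touching intervals were merged, and autosomal intervals of 30 kb or more with at least 1 base from each replicate were kept. Of 40441 merged H3K36me2 peaks, 39920 lay on autosomes, 2090 of those reached 30 kb, and 2 of the 2090 were called in a single replicate. That low count partly follows from the merging, which joined intervals of both lists: 925 of the 2088 domains held no 30 kb interval in either replicate. Because length in these lists selected the domains, their lengths and their H3K36me2 cover are given as a description, with no test.

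EL4 is a murine T lymphoblast line established from a T cell lymphoma of a C57BL/6N mouse, and all samples were untreated cells of this 1 line. ChIP-seq was performed for H3K36me2, H3K27me3, H3K4me3, H3K9ac and H3K27ac, and open chromatin was mapped by ATAC-seq, in which a transposase cuts accessible DNA. Each assay had 2 replicates, which the study treats as technical, so every ± below is the spread between 2 lists and not between independent cultures. The files list intervals with no height or score, and the depth behind an interval is unknown. H3K4me3 in both replicates was present at either end of the gene for 8 of 9 T lineage marker genes (Cd3e, Cd3d, Cd3g, Thy1, Lck, Cd28, Cd5 and Cd2), for 1 of 5 B lineage markers (Cd79a), for 2 of 5 myeloid markers (Spi1 and Lyz2), for 1 of 4 erythroid markers (Klf1) and for 0 of 3 neural markers. At the start itself it was absent from Cd79a and Lyz2.

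Dimethylation of histone H3 at lysine 36 is placed by the NSD enzymes and ASH1L and covers gene bodies and stretches between genes. SETD2 turns it into H3K36me3 behind elongating RNA polymerase. H3K36 methylation hinders the Polycomb complex PRC2, which places H3K27me3, and it is read by the PWWP domain of DNMT3A, a DNA methyltransferase. H3K4me3, H3K9ac and H3K27ac mark active promoters, and H3K27ac also marks enhancers.

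Promoters near domain edges are shown for 4 genes, to give the sequence of active gene starts close to an edge. They belong to genes among the 10 with the most bases inside a single domain, each with a domain edge within 3 kb of the annotated gene start and H3K4me3 there in both replicates. The sequences are from RefSeq (GRCm38.p6), run 5′ to 3′ on the gene's strand from 250 bases before to 50 after the tabled start, and capitals mark CG dinucleotides.
Cux1, chr5:136565932-136566231, minus strand: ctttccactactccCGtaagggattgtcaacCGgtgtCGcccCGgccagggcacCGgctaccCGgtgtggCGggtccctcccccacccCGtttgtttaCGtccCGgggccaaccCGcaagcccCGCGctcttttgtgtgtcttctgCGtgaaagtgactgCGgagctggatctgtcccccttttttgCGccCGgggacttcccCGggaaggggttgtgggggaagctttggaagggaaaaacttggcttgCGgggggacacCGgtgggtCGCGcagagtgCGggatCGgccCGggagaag
Cmip, chr8:117256769-117257068, plus strand: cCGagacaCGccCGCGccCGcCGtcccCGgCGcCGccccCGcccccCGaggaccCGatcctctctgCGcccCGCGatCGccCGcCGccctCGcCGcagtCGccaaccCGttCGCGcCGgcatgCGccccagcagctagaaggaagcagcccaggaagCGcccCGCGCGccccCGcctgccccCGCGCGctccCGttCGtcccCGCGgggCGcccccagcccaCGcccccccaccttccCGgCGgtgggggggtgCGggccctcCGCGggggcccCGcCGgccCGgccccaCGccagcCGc
Med13l, chr5:118560469-118560768, plus strand: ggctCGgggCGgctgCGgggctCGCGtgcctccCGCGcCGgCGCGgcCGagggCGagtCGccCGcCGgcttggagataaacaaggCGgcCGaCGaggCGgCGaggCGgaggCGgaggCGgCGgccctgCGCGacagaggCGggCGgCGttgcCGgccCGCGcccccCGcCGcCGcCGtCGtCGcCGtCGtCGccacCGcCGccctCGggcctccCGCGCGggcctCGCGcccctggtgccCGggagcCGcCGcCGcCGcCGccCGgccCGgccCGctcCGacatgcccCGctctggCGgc
Ankrd11, chr8:123042235-123042534, minus strand: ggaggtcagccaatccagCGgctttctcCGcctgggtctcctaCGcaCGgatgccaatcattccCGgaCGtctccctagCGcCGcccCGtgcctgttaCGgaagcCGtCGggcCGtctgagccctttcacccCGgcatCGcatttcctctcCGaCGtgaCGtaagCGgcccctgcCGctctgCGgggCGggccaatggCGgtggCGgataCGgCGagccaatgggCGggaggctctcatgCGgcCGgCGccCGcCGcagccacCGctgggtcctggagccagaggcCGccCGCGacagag
Cux1 encodes a homeodomain transcription factor, Cmip an adaptor protein of T cell signalling, Med13l a subunit of the Mediator kinase module and Ankrd11 a chromatin regulator that binds histone deacetylases. The 4 windows held 25, 50, 61 and 36 CG dinucleotides in that order. None of the windows held the edge itself, and those of Cux1 and Cmip lay inside the pooled domain. All 300 bases of each window lay inside H3K4me3 and H3K27ac peaks in both replicates. ATAC-seq peaks covered the whole window of Cmip, Med13l and Ankrd11 in both replicates, but 63 bases of the Cux1 window in replicate 1 and 0 in replicate 2.

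At these genes the H3K36me2 domain stopped inside or next to the H3K4me3 peak. The Ankrd11 domain ended at position 123040599 in both replicates, inside an H3K4me3 interval that ran from 123040121 to 123043676. The Med13l domain began at 118562801 in replicate 1 and 118562201 in replicate 2, either side of the H3K4me3 end at 118562577. The Cmip domain began at 117255401 in replicate 1, upstream of the H3K4me3 interval, and at 117258201 in replicate 2, inside it. The Cux1 domain ended at 136568999 in replicate 1 and at 136562599 in replicate 2, so the replicates disagreed by 6400 bp across the promoter.

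CG-rich promoters of this kind were common at the edges. The edge promoters were 546 tabled promoters with a domain edge within 3 kb, whose gene ran into the domain. A pooled H3K4me3 peak lay within 2 kb of that edge. Their median window held 23.5 CG dinucleotides and 85.7% had an observed to expected CG ratio of 0.6 or more. Over all 15485 tabled promoters of autosomal protein-coding genes the median was 14 and the share was 50.7%. Over the 7329 with H3K4me3 at the start they were 22 and 79.5%, which is close to the edge promoters. The 7329 needed it in both replicates, from 3 kb upstream to 2 kb downstream, so the 2 H3K4me3 rules differ. The ETS-type word CCGGAAG, searched on both strands, was present in 21.8% of the edge promoters, in 22.3% of those with H3K4me3 and in 12.6% of all. The word TATAAA was present in 5.49%, 6.49% and 13.7%.

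The domains were 5.23% of the merged autosomal H3K36me2 peaks and held 26.3% of their length. Together they spanned 101.668 Mb of the 386.164 Mb of merged H3K36me2, or 4.24% of the autosomal span. The median length was 41399 bp, the quartiles were 34399 and 54999 bp, and the longest domain reached 218.599 kb. There were 662 domains of at least 50 kb and 70 of at least 100 kb. The length limit cut a continuous distribution: 23 domains of 30199 bp lay just inside it and 28 peaks of 29999 bp just outside, with a median of 73.5% and 77.0% of their bases called in both replicates.

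Both replicates supported the domains, but seldom as unbroken intervals. Replicate 1 covered 91.2% of the domain length and replicate 2 covered 90.4%. Bases called in both made up 81.6% and bases called in 1 only made up 18.4%, against 65.7% called in both for the 8767 H3K36me2 peaks of 10 to 30 kb. The median domain had 82.8% of its bases in both lists. It was over 90% in 519 domains and under 50% in 74, and it fell as low as 5.16%.

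The share of bases called in both replicates was higher in longer domains. Length and this share come from the same 2 lists, and replicate edges a median of 800 bp apart weigh more in short intervals. How much of the rise follows from that was not tested, and the same limit holds for the 10 to 30 kb peaks. The median share called in both replicates was 79.0% in the 970 domains of 30 to 40 kb, 83.04% in the 727 of 40 to 60 kb, 86.9% in the 321 of 60 to 100 kb and 90.9% in the 70 longer ones. The plot of replicate support against length shows this narrowing. Pooling also built length: 432 domains (20.7%) held an interval of 30 kb or more in each replicate on its own, and 925 (44.3%) held none in either. A domain was made of a median of 2 intervals in each replicate.

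**Figure D1:**
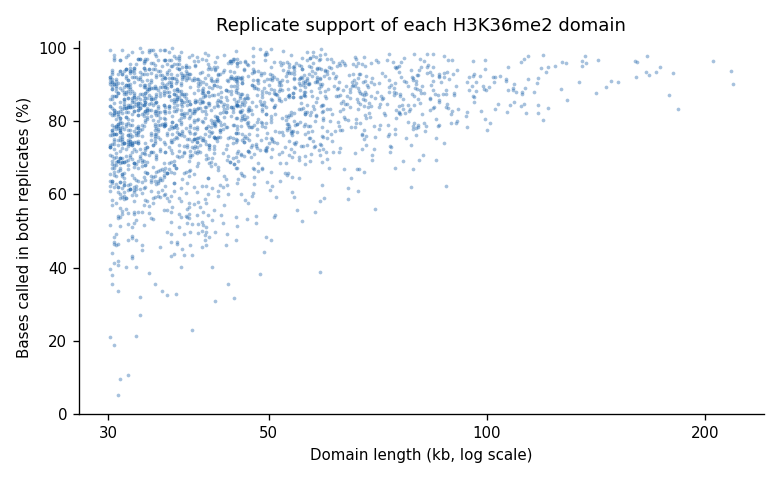
Each point is 1 of the 2088 H3K36me2 domains, with its length in kb (log scale) on the horizontal axis and the percentage of its bases called in both replicates on the vertical axis. Low support is found among the shorter domains, where values reach 5.16%, while the 70 domains of 100 kb or more have a median of 90.9%.

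Genes accounted for most of the sequence under the domains. A protein-coding gene was touched by 1952 domains (93.5%), and protein-coding genes made up 85.2% of domain length, against 77.8% for H3K36me2 peaks of 10 to 30 kb, 48.0% for the 1371 H3K27me3 domains of 30 kb or more and 41.1% of the autosomal span. A single protein-coding gene was touched by 1263 domains, 2 by 479, 3 by 126, and 4 or more by 84. Within 1 gene, from edge to edge, lay 708 domains (33.9%). No protein-coding gene was touched by 136 domains, and 42 touched no annotated gene of any kind.

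Conversely, 2606 of 20661 autosomal protein-coding genes were touched, which is 12.6%. Of them, 1901 had 50% or more of their length inside domains, 1238 had 90% or more, which is 5.99% of all genes, and 751 lay wholly inside. Touched genes had a median length of 34.8 kb, and untouched genes 15.8 kb. A gene could hold several domains: 287 genes held 2 or more, and Zfhx3, a large homeodomain and zinc finger transcription factor gene, and Foxp1, a forkhead factor of lymphocytes, held 7 each.

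The touched genes mostly had an active start. H3K4me3 was called in both replicates between 3 kb upstream and 2 kb downstream of the start at 46% of all genes with a known strand (7566 of 16456). It was present at 1684 of 2125 touched genes (79.2%) and at 41.0% of the untouched. The same contrast held at each gene length: 75.2% against 39.99% under 30 kb, 87.1% against 49.2% from 30 to 100 kb, and 72.7% against 30.6% above 100 kb. Of genes with 50% or more of their length in domains, 85.0% had H3K4me3 at the start. H3K27me3 was called in both replicates at the start of 2.35% of touched and 11.3% of untouched genes.

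Cover by the long domains rose from the start towards the 3′ end. In the 2918 genes of 30 kb or more with H3K4me3 at the start, domains covered 6.56% of the last 2.5 kb upstream, and, with the gene body cut into 10 equal steps, 14.5% of step 1, 25.5% of step 8 and 23.8% of step 10. Cover was still 20.2% in the 2.5 kb past the 3′ end and had come down to 11.7% in the outermost such window plotted. In the 2732 long genes with no H3K4me3 at the start it stayed between 1.32% and 4.66%. The full replicate lists, which also include shorter peaks, had another shape: they fell to 16.5% and 14.9% in the last 2.5 kb upstream, reached 52.9% and 52.6% by step 2 and then stayed between 51.7% and 55.9% to step 10.

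**Figure D2:**
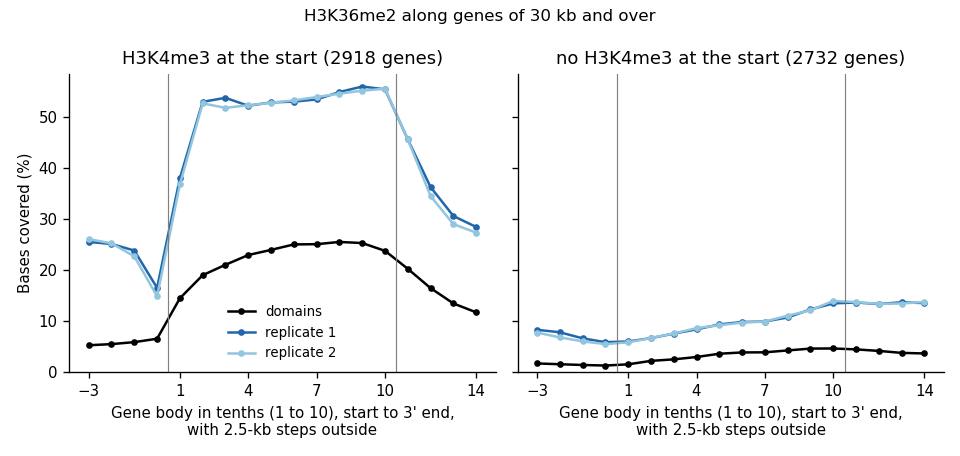
Percentage of bases covered along genes of 30 kb or more, with the gene body in 10 equal steps from start to 3′ end and 2.5-kb steps on each side, for the domains (black) and the full H3K36me2 list of each replicate (blue). Cover by domains climbs from 14.5% in step 1 to 25.5% in step 8 in genes with H3K4me3 at the start (left), and stays at or under 4.66% in the other long genes (right).

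The longest domains each centred on 1 to 3 genes, with 1 gene-dense exception. The first lay over Cux1 (chr5:136350401-136568999, 218.599 kb), with 97.6% of its bases in replicate 1 and 92.4% in replicate 2. The second lay over Trerf1, a zinc finger transcriptional regulator (chr17:47142201-47359399, 217.199 kb), with 97.1% and 96.7%. The third ran along Cmip (chr8:117255401-117460799, 205.399 kb), with 98.7% and 97.8%. The Trerf1 and Cmip domains spanned nearly the whole gene, 98.1% and 99.7% of its length.

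The others in the 10 longest were of the same build. The fourth covered Ntn1, the gene of the guidance cue netrin-1, and had the most uneven support, with 85.0% in replicate 1 and 98.3% in replicate 2. The fifth held Ssbp3, Cyb5rl and Mrpl37. The sixth, 178.799 kb on chromosome 8, held 10 genes, among them Piezo1, a mechanosensitive channel, Cbfa2t3, a corepressor of blood cells, and Cdt1, a replication licensing factor. Others lay over Retreg1 with Myo10, over Hdac4, and over St3gal3 with Kdm4a, the last at 166.599 kb. H3K27me3 peaks were at 0 in all 10.

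By bases covered in a single domain, the leading genes included Trerf1 (217.199 kb), Cux1 (217.19 kb), Cmip (203.781 kb), Mad1l1 (164.911 kb), Hdac4 (164.221 kb), Med13l (160.599 kb), Ankrd11 (157.279 kb), Ntn1 (155.426 kb) and Map2k5 (151.999 kb). Hdac4 encodes a class IIa histone deacetylase. Mad1l1 encodes a spindle checkpoint protein and Map2k5 a kinase. Mad1l1 was covered over 52.7% by its longest domain and over 76.7% by both of its domains.

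The domain with the most protein-coding genes held 11 in 78.999 kb (chr19:4122401-4201399). They included Carns1, Cabp4, Tbc1d10c, Rps6kb2, Tmem134 and Rad9a. Replicate 1 covered 97.5% of it and replicate 2 covered 81.3%, and 11 H3K4me3 and 12 H3K27ac intervals touched it. Of the domains with no protein-coding gene, the longest ran over 142.599 kb (chr8:126667001-126809599) with 98.3% and 98.5% of its bases in the replicates, and it touched 4 H3K4me3, 5 H3K27ac and 4 ATAC-seq intervals. The longest with no annotated gene at all was 84.399 kb on chromosome 18, with 94.3% and 96.7%, and touched 3 H3K27ac, 2 ATAC-seq and 0 H3K4me3 intervals.

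Gene ends lay at a minority of the edges. Of 4176 edges, 1319 (31.6%) were within 3 kb of an end of a protein-coding gene, against 9.15% of domain midpoints, 11.8% of points 10 kb inside and 17.8% of points 20 kb outside. From 15 to 20 kb outside, H3K36me2 itself covered 52.3% and 51.8% of bases in replicates 1 and 2. The median distance to a gene end was 8.58 kb from edges and 18.9 kb from midpoints. The share was 24.7% at the edges of H3K36me2 peaks of 10 to 30 kb and 7.77% at the edges of H3K27me3 domains of 30 kb or more. Domains that ran from the start of a gene to the 3′ end of the same gene numbered 53.

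A gene body is called inside when it lies on the domain side of the gene end, even if it runs past the other edge. Where an edge met a gene end of known strand, it was most often a start with the body inside. Of 1100 such edges, 607 (55.2%) were of that kind, 241 (21.9%) were a 3′ end with the body inside, 159 (14.5%) a start with the body outside and 93 (8.45%) a 3′ end with the body outside. At the 607 starts the edge lay a median of 697 bp downstream of the start (quartiles 168 bp upstream and 1390.5 bp downstream). At the 241 3′ ends it lay a median of 564 bp past the end, a value bounded by the 3 kb limit: 3′ ends with the body inside were most frequent centred 3750 bp inside the edge, beyond that limit, so their count here leaves such edges out. At least 1 edge of the first kind was found in 562 domains, and 45 domains had such a start at each edge.

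**Figure D3:**
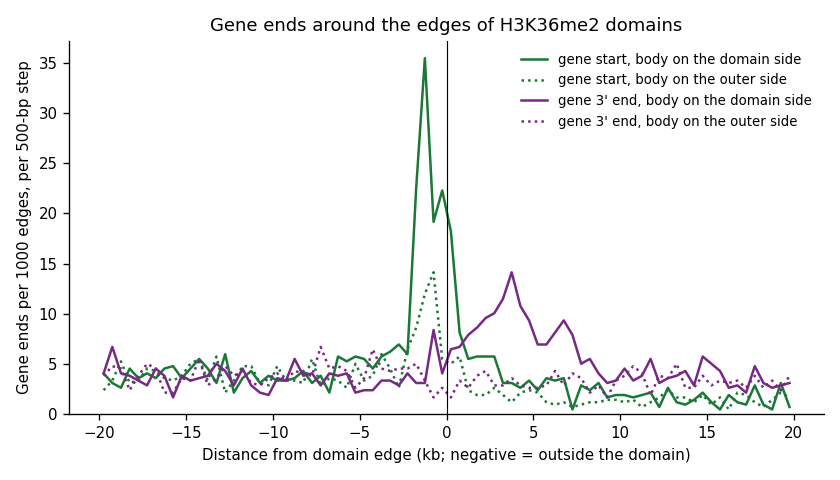
Gene starts and 3′ ends per 1000 domain edges in 500-bp steps, against distance from the edge in kb (negative outside the domain), split by whether the gene body lies on the domain side or the outer side of the gene end. Starts with the body on the domain side peak at 35.4 per 1000 edges centred 1250 bp outside, and 3′ ends with the body on the domain side peak at 14.1 per 1000 centred 3750 bp inside.

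Active promoter marks and open chromatin were more frequent at edges than inside the domains. H3K4me3 lay within 2 kb of 29.9% of edges in replicate 1 and 29.8% in replicate 2 (29.8% ± 0.0847, SD, n = 2), against 6.87% ± 0.373 of midpoints. H3K27ac lay within 2 kb of 31.6% and 31.7% of edges (31.7% ± 0.102), against 12.7% ± 0.169 of midpoints. H3K9ac gave 29.2% and 29.3% of edges, against 7.73% ± 0.102 of midpoints. ATAC-seq peaks were near 27.3% and 28.6% of edges (28.0% ± 0.931), against 6.75% ± 0.542 of midpoints. For every assay the gap between edges and midpoints was many times this spread, which keeps the pooled domains fixed and leaves out variation between the H3K36me2 lists. With domains and peaks taken from 1 replicate at a time, the SD of the edge share was 1.161 for H3K4me3, 1.881 for H3K27ac and 1.885 for ATAC-seq.

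Points outside the domains had shares between those of edges and midpoints, but many of these points lay in other H3K36me2 peaks. From 15 to 20 kb outside, H3K36me2 covered 52.3% of bases in replicate 1 and 51.8% in replicate 2. At 20 kb outside, H3K4me3 was near 11.0% ± 0.135 of points, H3K27ac near 13.9% ± 0.305 and ATAC-seq near 9.41% ± 0.745. At 10 kb inside the shares were 7.24% ± 0.0508, 13.1% ± 0.271 and 7.05% ± 0.559. H3K36me2 peaks of 10 to 30 kb had lower shares at their edges than the longer domains, with 21.8% ± 0.113 for H3K4me3, 23.7% ± 0.0766 for H3K27ac and 19.6% ± 0.718 for ATAC-seq. At the edges of long H3K27me3 domains, H3K4me3 was near 1.70% ± 0.0258.

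The marks sat on the outer side of the edge. In the profile by distance, H3K4me3 covered a maximum of 20.5% of bases in replicate 1 and 20.2% in replicate 2, both centred 625 bp outside. H3K27ac reached 19.5% and 19.8% at 875 bp outside. ATAC-seq, whose peaks are narrower, reached 7.47% at 1125 bp outside in replicate 1 and 8.66% at 875 bp outside in replicate 2. The ATAC-seq peak nearest to an edge had its centre outside the domain at 71.3% of 1226 edges, and the nearest H3K4me3 peak at 67.0% of 1256 edges. The H3K4me3 peak straddled the edge itself at 59.4%.

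**Figure D4:**
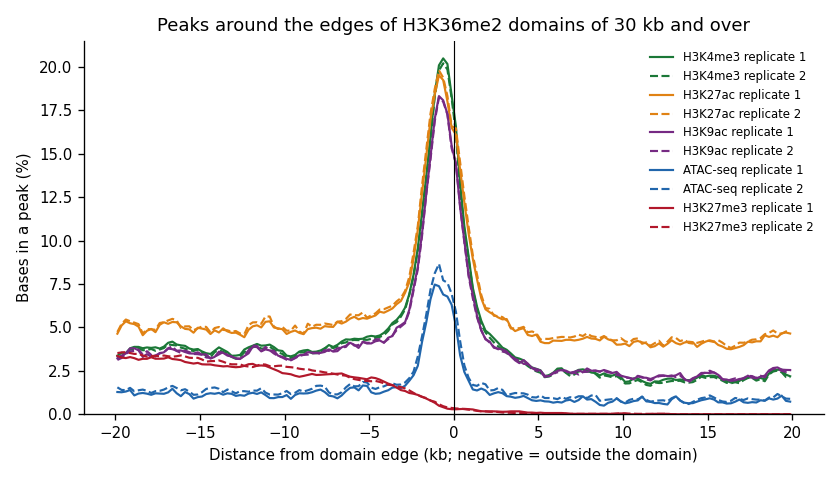
Percentage of bases in a peak of each assay and replicate (solid line replicate 1, dashed line replicate 2) in 250-bp steps around the 4176 domain edges, with distance in kb, negative outside the domain. H3K4me3, H3K9ac, H3K27ac and ATAC-seq peak just outside the edge, with H3K4me3 at 20.5% and 20.2%, while H3K27me3 declines towards the edge and is close to 0 inside.

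The marks lay at gene starts more than at 3′ ends. An active mark (H3K4me3, H3K9ac or H3K27ac) was near 93.1% of the 607 edges at a start with the body inside, and an ATAC-seq peak near 88.6%. The share with an active mark was 73.0% at starts with the body outside, 16.2% and 20.4% at 3′ ends with the body inside and outside, and 17.4% at the 2857 edges with no gene end within 3 kb. Over all edges, 873 (20.9%) had both an active mark and a gene end, 497 (11.9%) an active mark only and 446 (10.7%) a gene end only.

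Most edges, 2360 (56.5%), had neither. Without an ATAC-seq or H3K27me3 peak either, 1695 edges (40.6%) lay within a gene and 607 (14.5%) outside genes, and another 33 had an ATAC-seq peak only and 25 H3K27me3 only. At the 1695 within a gene, the next H3K36me2 interval was a median of 1001 bp away and within 5 kb in 80.5%, so H3K36me2 resumed shortly after the domain was called to stop. Over all edges that gap was 2201 bp. Of the 1533 edges followed by more than 5 kb without H3K36me2, 45.8% were near a gene end and 34.4% near H3K4me3, and 54.4% had a gene end or an active mark. Of the 2088 domains, 937 had an active mark at neither edge, 932 at 1 edge and 219 at both.

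The replicates placed an edge within 1 kb of each other in 53.3% of cases, at the same position in 16.0% and more than 10 kb apart in 2.35%. The median difference was 800 bp, which is 4 of the caller's 200-bp bins. An active mark was near 33.8% of the 2224 edges on which replicates agreed to 1 kb and near 21.4% of the 98 that differed by more than 10 kb. Within the domains, bases called in 1 replicate only lay under H3K4me3 more often than bases called in both (7.15% against 2.04%), and under ATAC-seq peaks more often (3.01% against 0.819%).

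Inside the domains, active marks covered a small share of bases. It was larger than in gaps of over 50 kb between domains and smaller than in shorter gaps. H3K27ac intervals covered 4.87% ± 0.101 of domain bases (n = 2), H3K4me3 2.84% ± 0.0777 and ATAC-seq peaks 0.998% ± 0.116. With both lists pooled the shares were 5.29%, 2.98% and 1.22%. In gaps of over 50 kb between neighbouring domains they were 1.20%, 1.08% and 0.422%. An H3K27ac interval touched 1446 domains (69.3%), an H3K4me3 interval 1265 (60.6%) and an ATAC-seq peak 1200 (57.5%). For H3K36me2 peaks of 10 to 30 kb these shares were 40.2%, 34.3% and 27.8%, but a longer interval has more room to touch a peak. Per Mb the domains held 49.5 H3K27ac, 24.2 H3K4me3 and 25.9 ATAC-seq peaks, against 47.2, 28.0 and 22.8 in the shorter ones. No active mark touched 601 domains, and 823 had no H3K4me3, against 5041 and 5761 of the 8767 shorter peaks.

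H3K27me3 was nearly absent from the domains and uncommon beside them, and H3K36me2 peaks of 10 to 30 kb shared this. H3K27me3 covered 0.0443% ± 0.00598 of domain bases and touched 27 of the 2088 domains (1.29%). In the shorter peaks it covered 0.0587% ± 0.0206 of bases and touched 0.639% of them. With both lists pooled it covered 17.1% of bases in gaps of over 50 kb between domains. In the 10 kb outside an edge it was called at 3.86% of edges in replicate 1 and 3.64% in replicate 2 (5.27% with both lists pooled), and in the 10 kb inside at 0.383% in each. Within 50 kb outside, 16.0% ± 0.830 of edges had it. At the shorter peaks the shares outside were lower, 2.45% ± 0.117 within 10 kb and 14.4% ± 0.552 within 50 kb. Both lists come from the same broad-domain caller, and the lists of the 2 marks were called separately.

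A minority of the short breaks between neighbouring domains held a promoter mark. Of 179 gaps of up to 2 kb, 25.1% touched an active mark, and H3K4me3 covered 19.9% of their bases, against 2.98% of the bases inside domains when both lists are pooled. Of 125 gaps of 2 to 10 kb, 43.2% touched an active mark and H3K4me3 covered 15.5% of bases. In the 358 gaps of 10 to 50 kb the H3K4me3 share of bases was 6.47%.

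Genes of the H3K36 methylation system were themselves among those covered. Of 23 writers, erasers and readers, 8 were touched (34.8%, against 12.6% of all genes). The median gene of the list was 43.6 kb long, against 17.5 kb for all genes, and the length was not matched. H3K4me3 was at the start of 14 of the 16 members with a known strand, against 46% of all such genes. Nsd2, which makes H3K36me2, was covered over 97.8% of its length, Nsd1 over 53.7% and Ash1l over 26.5%. Setd2, the H3K36me3 enzyme, was covered over 5.61%. Among the demethylases Kdm4b was covered over 99.2%, Kdm4a over 98.9% and Kdm2b over 86.7%, while Kdm2a and Kdm4c were at 0. The reader Dnmt3a was covered over 55.0%. The writer Nsd3 and the methyltransferase Dnmt3b were at 0.

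T lineage transcription factor genes were touched in 12 of 22 cases (54.5%), with a median list length of 110.464 kb. Of all genes over 100 kb with a known strand, 21.7% were touched, and of those of 30 to 100 kb, 20.9%. Among such genes with H3K4me3 at the start, 279 of 704 and 706 of 2214 were touched. The mark was at the start of 12 of the 15 list members with a known strand. Tcf7, which encodes TCF-1, was covered over 93.8%, Tcf3 (E2A) over 93.5%, and Ikzf1 (Ikaros), Ikzf3 (Aiolos) and Bcl11b over 79.6%, 79.3% and 71.3%. Foxp1 was covered over 50.1% in 7 domains. Ets1 was covered over 44.6% and Nfatc3 over 41.2%. The remaining touched members had lower shares, and the median cover over the 22 genes was 12.7%. The 10 members outside the domains were Lef1, Gata3, Runx3, Ikzf2, Satb1, Zeb1, Bach2, Myb, Nfatc1 and Nfatc2.

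T cell receptor signalling genes were touched in 5 of 23 cases (21.7%), with a median list length of 45.354 kb. That is near the 20.9% touched among all genes of 30 to 100 kb with a known strand. Of the 17 list members with a known strand, however, 15 had H3K4me3 at the start. Among all genes of 30 to 100 kb with that mark at the start, 706 of 2214 were touched. Among them, the kinase Fyn was covered over 94.7%, the surface receptor Cd5 over 93.8%, the exchange factor Vav1 over 74.4% and Cd6 over 44.3%. The Cd5 domain was 98.7% covered by replicate 1 and 63.1% by replicate 2.

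In lists of other lineages, B lineage genes (median length 15.7 kb) were touched in 0 of 12 cases and Polycomb target developmental regulators (6.41 kb) in 0 of 20. In the myeloid list (7.68 kb) 1 of 12 was touched, Csf1r over 13.8% of its length. Of all genes under 30 kb with a known strand 8.61% were touched, and counts this low are near that share. In the list of 20 long neuronal and adhesion genes, whose median length was 1467 kb, only Cdh13 was touched, over 12.8%. H3K4me3 was at the start of 1 of the 12 with a known strand. Long widely expressed genes, with a median of 257.698 kb, were touched in 16 of 27 cases (59.3%), against 21.7% of all genes over 100 kb with a known strand. H3K4me3 was at the start of 21 of the 22 with a known strand, and 279 of 704 genes over 100 kb with it there were touched. In that list Cux1, Ankrd11, Kmt2a and Ep400 were covered over 99.5%, 98.9%, 95.7% and 94.8%, while Kmt2c shared only 0.005 kb with a domain.

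The chromosomes differed widely in domain number. Chromosome 11 held 222 domains (18.7 per 10 Mb), chromosome 5 held 235 (15.8), chromosome 15 held 154 (15.3) and chromosome 8 held 165 (13.1). Chromosome 14 held 6 (0.516 per 10 Mb), chromosome 16 held 13 (1.37) and chromosome 3 held 48 (3.06). H3K36me2 of any length spread over a narrower range: it covered 26.3% of chromosome 11, 19.7% of chromosome 15, 19.2% of chromosome 5, 9.30% of chromosome 16 and 7.42% of chromosome 14. Protein-coding genes were at 13.5 per Mb on chromosome 11, but at 7.31 on chromosome 14 and 7.70 on chromosome 15. Chromosome copy number in this line was not measured here, and its part in these differences was not tested. Both replicates gave the same picture, with 1 interval of 30 kb or more in each on chromosome 14 and 84 and 85 on chromosome 15.

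**Figure D5:**
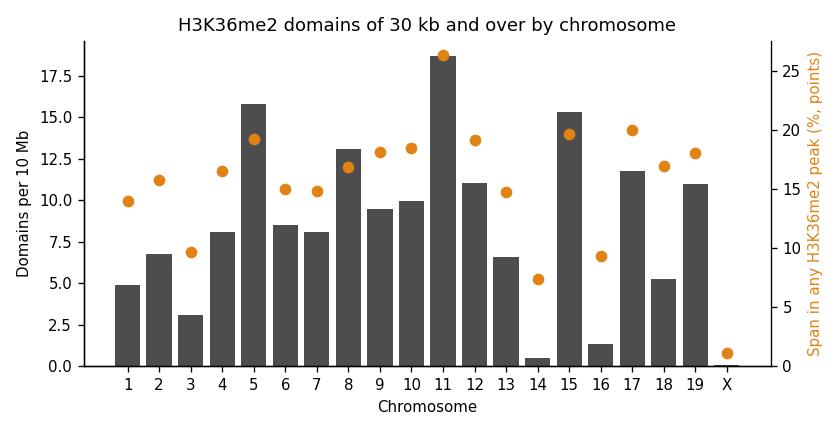
Bars give the number of H3K36me2 domains per 10 Mb of each autosome and of chromosome X, which is outside the chosen set, and points give the percentage of the chromosome in any merged H3K36me2 peak (right axis). Chromosome 11 stands at 18.7 domains per 10 Mb and 26.3% cover, chromosome 14 at 0.516 and 7.42%. The study reports discarding chromosome X reads from later steps, so its bar cannot be compared with the others.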

How the data were processed

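EL4 cells were profiled by ChIP-seq for 5 histone marks and by ATAC-seq, with 2 replicates each. Per the labels and the study's methods, the authors aligned reads to GRCm38 with STAR 2.5, removed duplicates with Picard, and called narrow peaks with MACS2 and broad H3K36me2 and H3K27me3 intervals with Epic. The deposited files are lists of intervals only, with no signal, ratio or p-value, so no depth, interval or test could be computed; comparisons are descriptive, with the spread between the 2 lists. Broad intervals lie on 200-bp bins whose last base is left out, so neighbouring bins are 1 bp apart and were not merged.

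Intervals were merged, intersected and measured in Python 3.11.15 with numpy 2.4.6 and pandas 2.3.3. The functions were tested on simulated intervals, and bedtools 2.31.1 gave the same 2088 domains. An edge was near a peak at 2 kb or less and near a gene end at 3 kb or less. Gene extents came from RefSeq (GRCm38.p6), and strand from the RefSeq promoter table for 16456 of 20661 autosomal protein-coding genes; the other genes entered no oriented count, and chromosome 18 had no strand. The tabled start of 971 genes lay over 3 kb from the end of the extent, Trerf1 among them, and these were left out of the promoter counts. Input and RNA-seq were not used here.

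The named genes were those in the 10 longest domains, the 10 genes with the most bases in 1 domain, the domain with the most genes, the longest domains without genes, and members of 8 gene lists. Some items that this rule names are not reported here. Domains, lists and measures were chosen with earlier results of these data known. Alternatives varied the merging distance, length limit, replicates, windows, peak lists, gene set and chromosome X.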

Additional observations from a re-analysis of the deposited data

How the results depend on the processing

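No paired analysis was possible because no test was made on these lists, which hold intervals without values. Of 100 alternative values, 42 moved by less than the replicate spread or, for counts, stayed within 1.5 times, and 58 moved further; the H3K27ac share was above that of midpoints in all 11 alternatives of that difference, from 15.5 to 20.4 percentage points. Merging intervals up to 1 bp apart or adding chromosome X moved none of the 10 results past those limits.

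The number and length of domains depended most on the processing. A limit of 20 kb gave 4282 domains and 154.945 Mb, a limit of 50 kb 662 domains and 48.0 Mb, and the intersection of the replicates 374 domains and 15.9 Mb. Leaving out a replicate gave 842 to 855 domains and 36.7 to 37.3 Mb. The share of length in both replicates was 76.2% with intervals up to 1000 bp apart merged, 78.4% from 20 kb and 85.8% from 50 kb.

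The share of domains touching a protein-coding gene was 91.9% from 20 kb, 95.9% from 50 kb, 97.1% in the intersection, 98.0% with all annotated genes and 95.1% to 95.4% without a replicate. The share of edges near a gene end was 33.8% with 1000-bp merging, 13.9% within 1 kb, 40.7% within 5 kb, 38.7% with all genes, and 29.4% to 31.8% without a replicate.

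With windows of 1 kb and 5 kb, the edge shares were 28.3% and 42.7% for H3K27ac, 27.04% and 38.2% for H3K4me3, and 23.3% and 38.8% for ATAC-seq. Without a replicate they were 28.9% to 31.5%, 26.6% to 28.2% and 24.7% to 27.4%. H3K4me3 was at 32.3% with 1000-bp merging, 28.4% from 20 kb, 31.6% from 50 kb and 28.6% in the intersection. ATAC-seq was at 27.3% from 20 kb and 26.6% with peaks touched by both replicates. Edges followed by over 5 kb without H3K36me2, an alternative chosen after seeing the data, gave 45.8% for gene ends, 35.2% for H3K27ac, 34.4% for H3K4me3 and 33.1% for ATAC-seq.

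The difference between edges and midpoints in H3K27ac was 20.4 points with 1000-bp merging, 15.5 in the intersection, 20.2 with a 5 kb window and 15.7 to 16.9 without a replicate. H3K27me3 in the outer flank, at 5.27% with pooled lists, was at 5.84% with 1000-bp merging, 4.62% from 20 kb, 6.65% from 50 kb, 3.48% in the intersection, 2.73% with peaks touched by both replicates, 19.8% in a 50 kb flank and 3.03% to 3.27% without a replicate. The cause of these shifts was not tested beyond what each setting changes by its construction.

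With 2 technical replicates of 1 line and no scores, a domain can end because the mark ends or because the signal fell under the caller's limit, and these cannot be told apart.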
